A study of Mus musculus with 40 samples.

Results

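Brown adipocytes burn fatty acids to make heat, and the 7 genes described here, Ucp1, Cidea, Elovl3, Cox8b, Cox7a1, Dio2 and Prdm16, are a usual reading of that programme. They were chosen by name, from both organs. The rule used none of their values, but earlier results of these data were known when the genes were chosen. All 7 were present in the table of 55335 genes for aorta and in the table of 55382 genes for kidney. Aortas and kidneys came from C57BL/6 mice with a deletion of the epidermal growth factor receptor (EGFR) in endothelial cells (EC-EGFR-KO, here KO) or from controls (EC-EGFR-WT, here WT), after 18 weeks on a standard fat diet (SFD, 10% of energy from fat) or on a high fat diet (HFD, 60%) that began at an age of 6 weeks. Each of the 4 groups held 5 libraries per organ, and RNA-seq read counts per gene were measured. KO mice carried EGFRflox/flox and a Cre transgene, B6.Cg-Tg(Tek-cre)1Ywa/J, in which the Tie2 promoter drives the recombinase in endothelium and also in blood-forming cells. WT mice carried the same Cre transgene without loxP sites, so all 4 groups share it. The sex of the mice is not named. Aortas were cleared of neighbouring fat and connective tissue, and kidneys of neighbouring tissue, before freezing.

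As background, Ucp1 is the proton carrier of the inner mitochondrial membrane that uncouples respiration from ATP synthesis and is the defining protein of brown fat. Cox8b and Cox7a1 are subunits of cytochrome c oxidase that are abundant in brown fat and in muscle, Cidea coats lipid droplets, Elovl3 lengthens fatty acids, Dio2 converts the prohormone thyroxine to active thyroid hormone, and Prdm16 is a transcriptional co-regulator of brown fat identity. Noradrenaline from sympathetic nerves acts on beta-adrenergic receptors to raise cyclic AMP, which drives lipolysis and transcription of Ucp1 and Dio2. In the mouse, the fat around the thoracic aorta resembles brown fat, whereas the fat around the kidney is a white depot that can hold brown-like cells.

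The proximal promoters are shown for the 3 genes that were most closely correlated in aorta, Ucp1, Cox8b and Cox7a1, and for Dio2, which was inversely correlated with them. The sequences are the 250 bases before the RefSeq transcription start on GRCm38.p6, read 5′ to 3′ on the strand of the gene, and promoters were matched for 5 of the 7 genes. The RefSeq start of Dio2 lies upstream of the end of its GENCODE model given below. Capitals mark motifs searched on both strands: the cyclic AMP response element TGACGTCA and its core TGACG, the nuclear receptor half-site AGGTCA, a direct repeat of this half-site with 1 base between the copies and the TATA box TATAAA.
Ucp1, chr8:83290098-83290347, plus strand: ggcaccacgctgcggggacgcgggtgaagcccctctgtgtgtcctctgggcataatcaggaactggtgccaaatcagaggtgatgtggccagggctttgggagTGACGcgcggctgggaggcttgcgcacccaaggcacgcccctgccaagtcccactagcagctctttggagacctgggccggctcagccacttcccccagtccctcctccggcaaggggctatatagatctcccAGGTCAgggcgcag
Cox7a1, chr7:30183921-30184170, plus strand: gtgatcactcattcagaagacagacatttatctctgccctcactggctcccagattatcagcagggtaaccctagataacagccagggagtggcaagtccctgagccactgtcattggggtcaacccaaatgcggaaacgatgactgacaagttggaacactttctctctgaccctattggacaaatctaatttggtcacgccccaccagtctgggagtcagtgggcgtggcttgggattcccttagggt
Cox8b, chr7:140900447-140900696, minus strand: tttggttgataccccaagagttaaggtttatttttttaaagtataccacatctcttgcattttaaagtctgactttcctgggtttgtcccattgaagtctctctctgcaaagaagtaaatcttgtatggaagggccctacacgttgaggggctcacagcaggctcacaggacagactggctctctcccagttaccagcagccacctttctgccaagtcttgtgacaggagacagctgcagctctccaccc
Dio2, chr12:90739039-90739288, minus strand: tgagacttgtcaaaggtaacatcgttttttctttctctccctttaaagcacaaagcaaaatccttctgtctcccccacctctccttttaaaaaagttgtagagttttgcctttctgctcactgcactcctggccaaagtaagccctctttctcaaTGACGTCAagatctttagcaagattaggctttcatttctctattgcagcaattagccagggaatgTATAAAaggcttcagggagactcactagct
Positions are counted back from −1, the base before the start. The Ucp1 window held TGACG at −147 to −143 and AGGTCA at −14 to −9. The Dio2 window held the full TGACGTCA at −95 to −88, which contains TGACG on each strand, and TATAAA at −30 to −25. No motif was found in the windows of Cox7a1, Cox8b or Prdm16. Among 32851 promoter windows of the same length, 17.8% held TGACG, 14.02% AGGTCA, 12.4% TATAAA, 1.55% TGACGTCA and 0.0335% the direct repeat. These matches describe letters only.

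Libraries held 17520161 to 36452741 counts in aorta and 19643033 to 48833447 in kidney. Values are given as fragments per 1000000 (FPM), counts per 1000000 of the library size scaled by the trimmed mean of M-values (TMM). Each organ held the markers of its label: the sum of 7 smooth muscle markers was 25869 to 41445 FPM in aorta and 79.9 to 134 in kidney, and the sum of 7 kidney tubule and podocyte markers was 10257 to 12210 FPM in kidney and 0.700 to 2.34 in aorta. Egfr was 29.9 to 54.2 FPM in WT SFD aortas and 37.6 to 50.01 FPM in KO SFD aortas, 36.4 to 51.7 in WT HFD and 36.9 to 54.7 in KO HFD, and 21.7 to 64.5 over all kidneys, with log2 fold changes of KO against WT of 0.15 and 0.13 in aorta and −0.09 and 0.06 in kidney, none called; whole organs hold many other cells. One WT SFD and one KO SFD aorta library (R-1 and R-12) differed by less than the sampling noise, as did one KO HFD and one WT HFD kidney library (a1 and a12). The members of each pair carry different group labels, so the tests were repeated without them, and each pair was averaged to 1 in correlations.

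In aorta, all 7 genes were detected, but at unlike levels. Per kilobase of exon, the median over 20 aortas was highest for Cidea with 14.2 FPM, followed by Dio2 with 12.3, Prdm16 with 11.04, Cox8b with 8.63, Cox7a1 with 4.93 and Ucp1 with 2.77, and it was 0.0452 for Elovl3. The ranges of the first 6 overlapped, so that this order holds for the medians and not library by library. The spread differed more than the level. Ucp1 differed 521-fold between its lowest and highest aorta, Cox8b 51.3-fold and Cox7a1 17.1-fold, against 6.23-fold for Dio2, 3.50-fold for Cidea and 2.92-fold for Prdm16.

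Ucp1 (ENSMUSG00000031710, plus strand, GRCm38 chr8:83290352-83298452) was 7.85, 4.48, 4.599, 0.143 and 0.658 FPM in the WT SFD aortas R-1 to R-5. In the WT HFD aortas R-6 to R-10 it was 20.3, 11.3, 74.5, 4.02 and 1.23 FPM. In the KO SFD aortas R-11 to R-15 it was 3.30, 7.71, 0.250, 9.34 and 0.423 FPM, and in the KO HFD aortas R-16 to R-20 it was 6.39, 4.24, 6.08, 5.07 and 2.17 FPM. The WT HFD aorta R-8 stood above all others, low aortas below 1 FPM occurred in both SFD groups, and the 5 KO HFD aortas were the most even. The lowest value rested on 3 counts and the highest on 1277.

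Cox8b (ENSMUSG00000025488, minus strand, chr7:140898945-140900446) and Cox7a1 (ENSMUSG00000074218, plus strand, chr7:30184144-30186078) followed the same libraries. Cox8b was 6.56, 5.62, 5.29, 2.72 and 1.54 FPM under SFD and 9.06, 6.93, 18.0, 1.62 and 0.351 under HFD in WT, and 3.90, 6.53, 0.650, 4.22 and 0.423 under SFD and 3.50, 1.12, 2.21, 2.24 and 0.888 under HFD in KO. Cox7a1 was 4.33, 2.50, 3.17, 1.14 and 1.32 FPM under SFD and 7.70, 5.44, 14.99, 1.90 and 0.878 under HFD in WT, and 3.49, 4.42, 1.00, 2.83 and 0.940 under SFD and 3.39, 1.80, 1.87, 2.77 and 1.33 under HFD in KO. R-8 was again the highest for both genes, R-10 of the same group the lowest, and all 4 groups overlapped. Cox8b was the minor form of its subunit: per kilobase it made up 0.371% to 10.1% (median 2.43%) of the sum of Cox8b and its ubiquitous paralog Cox8a.

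Cidea (ENSMUSG00000024526, plus strand, chr18:67343604-67367785) had no aorta close to 0. It was 23.4, 22.7, 30.6, 8.91 and 16.7 FPM under SFD and 19.9, 19.7, 28.7, 8.72 and 8.72 under HFD in WT, and 24.6, 23.4, 13.4, 23.7 and 13.6 under SFD and 13.4, 13.4, 9.20, 14.9 and 9.13 under HFD in KO. R-4, the aorta with the least Ucp1, kept 8.91 FPM of Cidea. The ratio of Ucp1 to Cidea in FPM accordingly ran from 0.0160 to 2.59 with a median of 0.322.

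Elovl3 (ENSMUSG00000038754, plus strand, chr19:46131897-46135694) amounted to 88 counts in all 20 aortas, of which 45 came from R-8. It was 0.197, 0.132, 0.159, 0.0953 and 0 FPM under SFD and 0.302, 0.220, 2.62, 0 and 0 under HFD in WT, and 0.0465, 0.197, 0, 0.0497 and 0 under SFD and 0.164, 0.0487, 0.0833, 0.160 and 0 under HFD in KO. Its exons overlap Pitx3 on the other strand, strand-specific counting is not stated, and it did not pass the filter on low counts.

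Dio2 (ENSMUSG00000007682, minus strand, chr12:90724552-90738438) and Prdm16 (ENSMUSG00000039410, minus strand, chr4:154316125-154636873) were inversely related to Ucp1. Dio2 was 71.3, 32.8, 34.1, 114 and 89.6 FPM under SFD and 41.3, 18.4, 31.5, 48.2 and 85.1 under HFD in WT, and 35.7, 72.1, 72.1, 72.3 and 71.4 under SFD and 30.8, 78.2, 73.2, 86.0 and 109 under HFD in KO. Its highest aorta was R-4, where Ucp1 was lowest. Prdm16 was 98.2, 96.1, 103, 83.7 and 147 FPM under SFD and 80.9, 73.5, 88.0, 98.7 and 214 under HFD in WT, and 103, 98.0, 149.7, 124 and 106 under SFD and 116, 118, 119, 99.4 and 175 under HFD in KO. Its highest aorta was R-10, where Cox8b and Cox7a1 were lowest. Both genes overlap a transcript on the other strand, Gm26512 for Dio2 and B230104I21Rik for Prdm16.

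**Figure D1:**
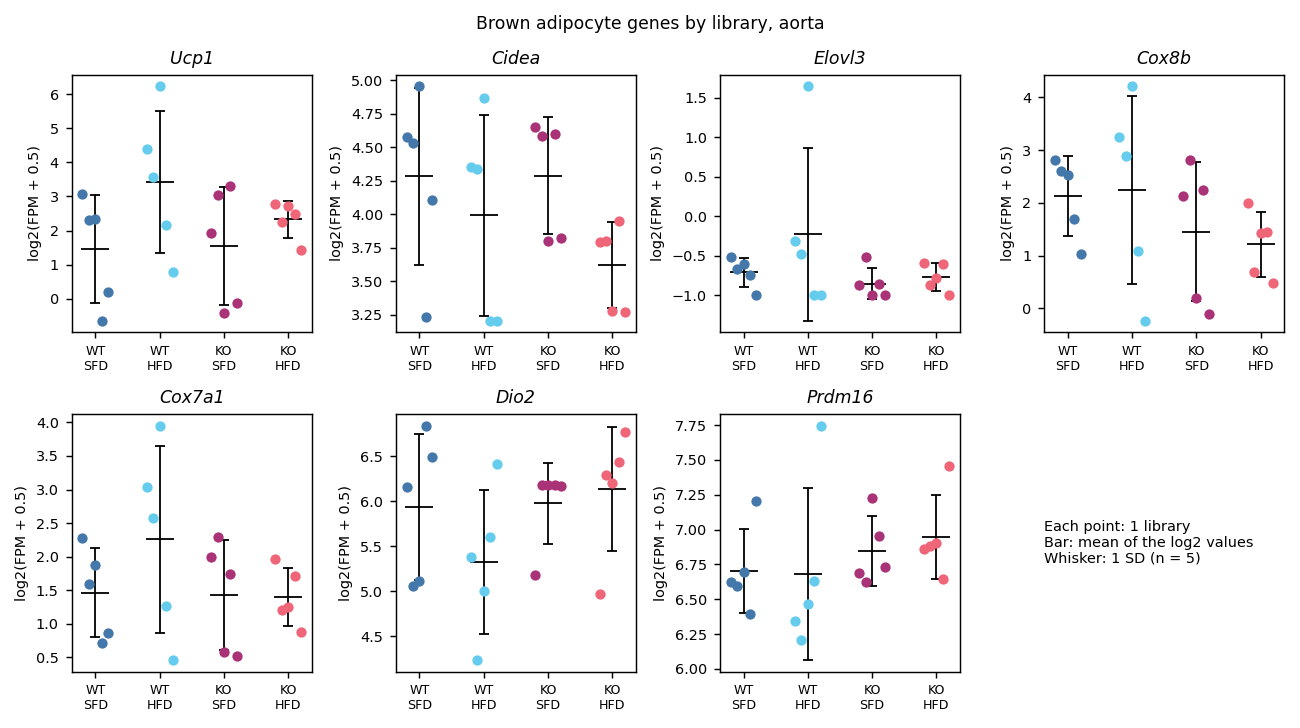
Level of each gene in 20 aortas, as log2(FPM + 0.5) by group; each point is 1 library, the bar the mean and the whisker 1 SD (n = 5). Ucp1 spans 0.143 to 74.5 FPM and overlaps between all 4 groups, whereas Cidea stays between 8.72 and 30.6 FPM.

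The question asked of each comparison was whether the endothelial deletion, the diet or their combination altered these genes. Of these genes, 6 could be tested in aorta and none was called at an adjusted p under 0.05 in any of 5 comparisons by edgeR's quasi-likelihood test, the edgeR exact or likelihood ratio test, or DESeq2. Over all 15122 genes tested, the share called was 0% for KO against WT under SFD, 0% for KO against WT under HFD, 0.0132% for HFD against SFD in WT, 0% for HFD against SFD in KO and 0% for the interaction. At an unadjusted p under 0.05 the counts of the 6 genes were 0, 3, 2, 1 and 0 in that order. The corresponding shares of all genes were 2.28%, 5.85%, 2.61%, 4.56% and 0.84%. The median log2 fold change of the 6 genes was −0.99 for KO against WT under HFD, beside 0.01 over all genes tested, and 0.40, beside 0.01, for HFD against SFD in WT. In a bulk organ, fewer cells of a type and less RNA per cell cannot be told apart.

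The widest differences were seen for Ucp1. It was 3.55 ± 3.18 FPM (SD, n = 5) under SFD and 22.3 ± 30.1 under HFD in WT, and 4.20 ± 4.16 under SFD and 4.79 ± 1.69 under HFD in KO. The fitted log2 fold change of HFD against SFD in WT was 2.63 (SE 1.01), with an unadjusted p of 0.0169 and an adjusted p of 1.00 by edgeR; without R-8 it was 1.37. The exact two-sided permutation test of log2(FPM + 0.5) between these groups gave p = 0.143. KO against WT under HFD gave −2.22 (SE 0.99, adjusted p = 0.821 by edgeR; exact permutation p = 0.317) and −0.95 without R-8. The interaction was −2.45 (SE 1.38, unadjusted p = 0.0909 by edgeR) and −1.19 without R-8. Under SFD, KO against WT was 0.24 (SE 0.97), and HFD against SFD in KO was 0.18 (SE 0.97).

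The cytochrome c oxidase subunits had the signs of Ucp1 for HFD against SFD in WT and for KO against WT under HFD, but not for HFD against SFD in KO, with −0.20 (SE 0.60) for Cox7a1 and −0.68 (SE 0.77) for Cox8b. Cox7a1 was 2.49 ± 1.33 FPM (SD, n = 5) under SFD and 6.18 ± 5.63 under HFD in WT, and 2.53 ± 1.54 under SFD and 2.23 ± 0.829 under HFD in KO. Its log2 fold change of KO against WT under HFD was −1.47 (SE 0.60, adjusted p = 0.737 by edgeR, exact permutation p = 0.222) and −0.84 without R-8. HFD against SFD in WT gave 1.30 (SE 0.59) for Cox7a1 and 0.67 without R-8. Cox8b was 4.34 ± 2.12 FPM under SFD and 7.20 ± 7.05 under HFD in WT, and 3.15 ± 2.59 under SFD and 1.99 ± 1.04 under HFD in KO. Its log2 fold change of KO against WT under HFD was −1.85 (SE 0.78, adjusted p = 0.751 by edgeR, exact permutation p = 0.262) and −1.18 without R-8, while HFD against SFD in WT was 0.72 (SE 0.75) and 0.05 without R-8. One aorta thus carried much of each of these differences.

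Cidea was 20.5 ± 8.11 FPM (SD, n = 5) under SFD and 17.2 ± 8.53 under HFD in WT, and 19.7 ± 5.71 under SFD and 12.0 ± 2.68 under HFD in KO. HFD against SFD in KO gave a log2 fold change of −0.72 (SE 0.33, adjusted p = 0.987 by edgeR), and the exact two-sided permutation test of log2(FPM + 0.5) gave p = 0.0476 over 5 against 5 libraries, 1 of 24 such tests in aorta and not adjusted for their number. Dio2 was 68.4 ± 35.4, 44.9 ± 25.1, 64.7 ± 16.2 and 75.4 ± 28.5 FPM in the order above, with 0.75 (SE 0.40) for KO against WT under HFD. Prdm16 was 106 ± 24.4, 111 ± 58.5, 116 ± 21.2 and 125 ± 28.9 FPM in the same order, and its 4 pairwise log2 fold changes lay between 0.07 and 0.18. None of these differences passed beside the spread between libraries.

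**Figure D2:**
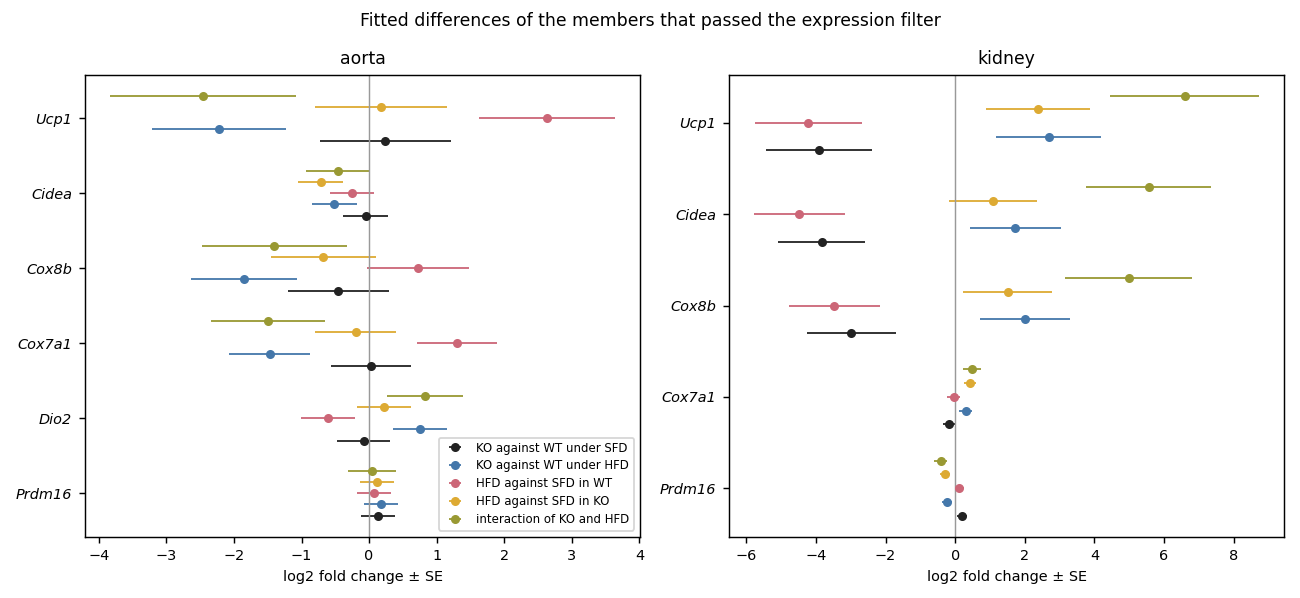
Fitted log2 fold change with its SE for each tested gene in 5 comparisons, by organ, from the edgeR fit of 20 libraries per organ. In aorta the widest values are those of Ucp1, 2.63 for HFD against SFD in WT, −2.45 for the interaction and −2.22 for KO against WT under HFD, and none was called. In kidney 1 was, Cidea under HFD in WT with −4.48.

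Across aortas, Ucp1, Cox8b, Cox7a1 and Cidea varied together, and Dio2 and Prdm16 went the other way. Over 19 aortas and 15 pairs of genes, 14 Pearson correlations of log2(FPM + 0.5) had an adjusted permutation p under 0.05, 7 of them positive and 7 negative. Spearman's rho gave 13. Without the 2 aortas farthest from the median of the first gene, 10 pairs had an adjusted p under 0.05. Within one diet, unadjusted p-values were under 0.05 for 7 of 15 pairs among 9 SFD aortas and for 15 of 15 among 10 HFD aortas.

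Ucp1 and Cox7a1 gave r = 0.92 and rho = 0.87 (permutation p = 1e-05, the smallest that 100000 permutations can give, and 2e-05; adjusted 7.5e-05 and 0.00015), and r = 0.89 without the 2 farthest aortas. Cox8b and Cox7a1 gave r = 0.92 and rho = 0.91 (permutation p = 1e-05 for both), and 0.89 without 2. Ucp1 and Cox8b gave r = 0.81 and rho = 0.79 (permutation p = 2e-05 and 0.00011), and 0.83 without 2. Cidea with Ucp1 gave r = 0.55 and rho = 0.53 over all aortas (permutation p = 0.0141 and 0.0223), and without R-4 and R-8 this pooled relation no longer held, with r = 0.37 (permutation p = 0.145). Within the diets it was closer, with r = 0.88 among 9 SFD aortas (exact permutation p = 0.00177) and 0.90 among 10 HFD aortas (permutation p = 0.00033), and 0.88 with values centred on the group means. Dio2 and Prdm16 gave r = 0.56 with each other (rho 0.50, permutation p = 0.0127 and 0.0303), and r of −0.60 and −0.47 with Ucp1 (permutation p = 0.0066 and 0.0455; rho −0.57 and −0.46). Cidea with Prdm16, r = −0.45, was the pair with an adjusted p above 0.05 (0.0552).

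These relations run along a wider difference between the aortas. The first principal component of the tested genes that are in none of the lists explained 41.5% of the variance and put 11 aortas on one side, 2 WT SFD, 2 WT HFD, 3 KO SFD and 4 KO HFD, and 9 on the other (R-1, R-2, R-3, R-6, R-7, R-8, R-11, R-12 and R-16). The correlation with this component was −0.58 for Ucp1, −0.68 for Cidea, −0.80 for Cox8b and −0.75 for Cox7a1, and 0.85 for Dio2 and 0.72 for Prdm16. Within the sides, of 11 and of 8 aortas after averaging R-1 with R-12, only Ucp1 with Cox7a1 (r = 0.87 and 0.97, permutation p = 0.00079 and exact p = 0.00057) and Cox8b with Cox7a1 (r = 0.77 and 0.91, permutation p = 0.00614 and exact p = 0.00404) passed an unadjusted p of 0.05 on both. Ucp1 with Cox8b gave 0.51 on the larger side and 0.93 on the smaller. Ucp1 with Cidea gave 0.23 and 0.15, and no pair with Dio2 or Prdm16 was under 0.05 on either side.

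**Figure D3:**
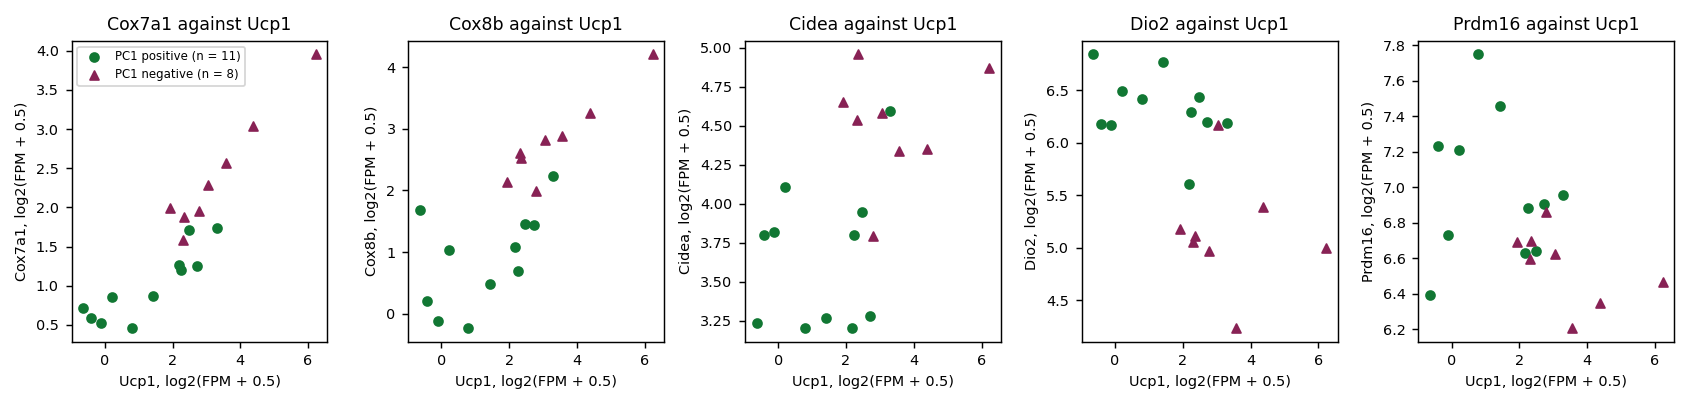
Ucp1 against each of 5 other genes, as log2(FPM + 0.5), in 19 aortas (R-1 and R-12 averaged), coloured by the side of the first principal component. Cox7a1 follows Ucp1 on both sides (r = 0.87 and 0.97), whereas Cidea, Dio2 and Prdm16 had no correlation with Ucp1 under an unadjusted p of 0.05 within either side.

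Other cell types were followed by marker lists. The sum of 10 white adipocyte markers, none at 0 throughout, was 766 to 1230 FPM under SFD and 664 to 911 under HFD in WT, and 569 to 804 under SFD and 580 to 744 under HFD in KO aortas. Of these, Plin4 was the highest in every aorta, at 388 to 616 FPM, and so the largest single part of the sum. It differed 1.59-fold between its lowest and highest aorta. Adipoq, the adiponectin gene and a defining marker, ranged from 0.761 to 37.0 FPM, which is 48.6-fold. Fabp4, which endothelium also makes, ranged from 78.9 to 337 FPM over all aortas. None of these 10 genes was called in aorta by edgeR's quasi-likelihood test. For HFD against SFD in WT, the edgeR exact test and DESeq2 both called Cfd, the gene of the adipokine adipsin, with 129 ± 69.2 FPM (SD, n = 5) in WT SFD and 16.9 ± 11.2 in WT HFD, and Retn, the resistin gene, with 12.4 ± 6.92 and 1.69 ± 1.17 FPM. Over the 10 markers the median was −1.29 on the log2 scale for KO against WT under SFD (10 of 10 negative; −0.0035 over all genes tested) and −0.61 under HFD, and −1.07 for HFD against SFD in WT, where Ucp1 had a positive value. With the white adipocyte score as a covariate, the log2 fold change of Ucp1 for HFD against SFD in WT was 3.50 (adjusted p = 0.882 by edgeR) and for KO against WT under HFD −0.93. Of the 6 genes, Cox8b alone had an adjusted p under 0.05 with that score over 42 relations (r = 0.57, rho = 0.61, permutation p = 0.0106 and 0.00703), and Ucp1 gave r = 0.15 (rho 0.20, permutation p = 0.529 and 0.404). Without the 2 aortas farthest from the median of the score, Ucp1 gave r = 0.48 (unadjusted permutation p = 0.0491). Cidea then gave 0.63, Cox8b 0.66 and Cox7a1 0.53 (unadjusted permutation p = 0.00723, 0.00438 and 0.0283). Dio2 and Prdm16 gave −0.37 and −0.47 (permutation p = 0.148 and 0.0578).

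The sum of 8 cardiac muscle markers, of which 1 was at 0 in all libraries, was 19.2 to 53.0 FPM under SFD and 20.02 to 50.5 under HFD in WT, and 20.4 to 62.9 under SFD and 25.7 to 42.8 under HFD in KO. Tnnt2, Myl4 and Actn2 had the highest medians over aortas, 12.6, 7.29 and 5.56 FPM, whereas Myl7 and Nppa had medians of 0 and 0.0473. The cardiac score used only the 5 markers that passed the filter on low counts. With this score 5 of the 6 genes passed, among them Cox8b (r = 0.73, rho 0.82, permutation p = 0.00055 and 7e-05) and Cox7a1 (r = 0.65, rho 0.83, permutation p = 0.00241 and 4e-05), both of which heart muscle also expresses. Cidea passed as well (r = 0.65), Dio2 and Prdm16 passed with negative values (−0.72 and −0.66), and Ucp1 did not pass (adjusted p = 0.113 by permutation). With the skeletal muscle score 4 of 6 passed, Cidea and Cox8b with positive and Dio2 and Prdm16 with negative values. That score rested on 4 of 10 markers, and the myosins Myh1, Myh2 and Myh4 had medians of 0 FPM. On the side of the component with 11 aortas an unadjusted p under 0.05 was found for Cox8b (r = 0.73) and Prdm16 (−0.75) with the cardiac score and for Prdm16 (−0.66) with the skeletal score. With the endothelium score, where no gene passed over all aortas, 4 of 6 had such a p on that side. They were Ucp1 (r = 0.72), Cox8b (0.70), Cox7a1 (0.83) and Prdm16 (−0.64). The smooth muscle score gave Prdm16 (0.82) there, and the white adipocyte score Cox8b (0.68) and Prdm16 (−0.61). On the side with 8 aortas none of these scores reached it. The part of these cells in the levels was not tested. The 7 tested lymphoid markers of 8 were all positive for KO against WT, with medians of 2.45 under SFD and 2.00 under HFD, and none was called by edgeR's quasi-likelihood test. Single aortas carried these values: the summed level was 125 FPM in R-11 and 226 in R-16, against 8.96 to 32.5 in the other aortas, and the medians were −0.14 without R-11 and −0.80 without R-16.

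The genes most like Ucp1 across 19 aortas, among 15116 ranked by Pearson's r, were Uqcrfs1 (0.85), the Rieske subunit of respiratory complex III, Plin5 (0.83), a lipid droplet protein of oxidative tissues, Nme1 (0.79), a nucleoside diphosphate kinase, Hadhb (0.79), a subunit of the mitochondrial trifunctional protein of beta-oxidation, and Gm5537 (0.79). Plin5 was at most 3.56 FPM, in R-8. The r over aortas in this paragraph pool both sides of the first principal component. The nearest gene was Ckb for Cidea (0.84), Decr1 for Cox8b (0.89), Chchd10 for Cox7a1 (0.88), Akap12 for Dio2 (0.94) and Prr12 for Prdm16 (0.92). Uqcrfs1, Plin5, Nme1, Hadhb and Gm5537 gave r with Ucp1 of −0.07, −0.07, −0.16, 0.30 and 0.02 over 19 kidneys.

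The wider brown fat programme was read from 57 other genes in 5 lists, 45 of them tested in aorta, and none was called in any comparison by edgeR's quasi-likelihood or exact and likelihood ratio tests or by DESeq2. At an unadjusted p under 0.05 there were 5 for KO against WT under SFD, 9 under HFD, 3 for HFD against SFD in WT, 2 in KO and 1 for the interaction, beside the shares of all genes given above. The 3 genes with the smallest p were Lpl, the lipase that releases fatty acids from lipoproteins, with 112 ± 26.8 FPM in WT SFD and 68.2 ± 16.1 in WT HFD (SD, n = 5; log2 fold change −0.71, adjusted p = 0.688 by edgeR), the transcription factor Irf4 (1.25 for KO against WT under HFD, adjusted p = 0.473 by edgeR) and the transcription factor Cebpb (0.99 for HFD against SFD in KO, adjusted p = 0.987 by edgeR). The highest aorta was a KO HFD one for both transcription factors. Irf4 was 6.01 FPM in R-16, against a median of 1.98 over all aortas, and Cebpb 85.0 FPM in R-19, against 20.1. R-16 also had the highest sum of lymphoid markers, 226 FPM. By list, the median r with Ucp1 was 0.62 for fatty acid oxidation, 0.42 for lipid supply, 0.31 for other brown-enriched genes and −0.05 for receptors and for transcription, against −0.02 for all genes. These r and those of the single genes below pool both sides of the first principal component, with which Ucp1 itself gave −0.58. Of single genes, Tfam, which maintains mitochondrial DNA, gave 0.68 and Acaa2, a beta-oxidation thiolase, 0.76, while Adrb3, the beta-adrenergic receptor of adipocytes, gave 0.36 and Pparg, the master regulator of adipogenesis, −0.04.

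The paralogs of the 7 genes stood at other levels. Cox8a was 151 to 290 FPM in aorta and Cox7a2l 129 to 239, both ubiquitous. Ucp2 was 19.9 to 153 FPM, and Ucp3, the form of muscle, 0 to 1.41. Cidec, of white fat lipid droplets, was 1.17 to 28.6 FPM, and Cideb, of liver and kidney, 0 to 0.175. Of the elongases, Elovl1 was 59.2 to 124 FPM, Elovl6 3.46 to 11.4, Elovl7 0.700 to 5.78 and Elovl2 at most 0.112. The other deiodinases were near 0 in aorta, Dio1 at most 0.055 and Dio3 at most 0.149 FPM, against 18.4 to 114 for Dio2. Mecom, the closest relative of Prdm16, was 22.1 to 55.8 FPM. Elovl4, Elovl5 and Cox7a2 were at 0 in every library of both organs and lie in a stretch of chromosomes without counts.

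In kidney, the 7 genes divided differently. Cox7a1 was the highest per kilobase, with a median of 28.7 FPM over 20 kidneys and a range of 22.2 to 43.5. Prdm16 was present throughout, with a median per kilobase of 1.44 FPM and a range of 1.10 to 1.94. Without division by length it was 10.2 to 18.1 FPM. Ucp1, Cidea and Cox8b had medians per kilobase of 0.343, 0.269 and 1.03 FPM, Dio2 of 0.0160 and Elovl3 of 0. Dio2 did not exceed 1.18 FPM, 31 counts, and with Elovl3 failed the filter, so 5 genes were tested.

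Ucp1 was 6.96, 2.71, 0, 44.5 and 0.290 FPM in the WT SFD kidneys a16 to a20, 0, 0.716, 0.308, 0.407 and 1.44 in the WT HFD kidneys a11 to a15, 0.0507, 0.0413, 0.186, 2.98 and 0.269 in the KO SFD kidneys a6 to a10, and 0.758, 0.0517, 1.27, 15.6 and 1.19 in the KO HFD kidneys a1 to a5. A single kidney was far above the rest in 3 of the 4 groups. Cidea was 11.4, 2.02, 0, 20.6 and 0.579 FPM under SFD and 0.126, 0.316, 0.192, 0.222 and 0.679 under HFD in WT, and 0.101, 0.124, 0.233, 1.85 and 0.0449 under SFD and 0.316, 0.155, 0.394, 4.03 and 0.285 under HFD in KO. Cox8b was 5.96, 1.12, 0.0875, 16.1 and 0.165 FPM under SFD and 0.211, 0.695, 0.308, 0.333 and 0.479 under HFD in WT, and 0.101, 0, 0.0931, 2.65 and 0.0449 under SFD and 0.674, 0.362, 0.875, 6.18 and 0.380 under HFD in KO. The kidneys a19, a16 and a4 were the highest 3 for all of these genes. Cox7a1 was 17.6, 12.4, 20.03, 18.5 and 12.9 FPM under SFD and 13.8, 23.3, 13.5, 11.9 and 16.2 under HFD in WT, and 13.2, 14.5, 14.01, 17.9 and 12.5 under SFD and 23.0, 21.1, 13.1, 20.2 and 19.1 under HFD in KO, with no such peaks.

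**Figure D4:**
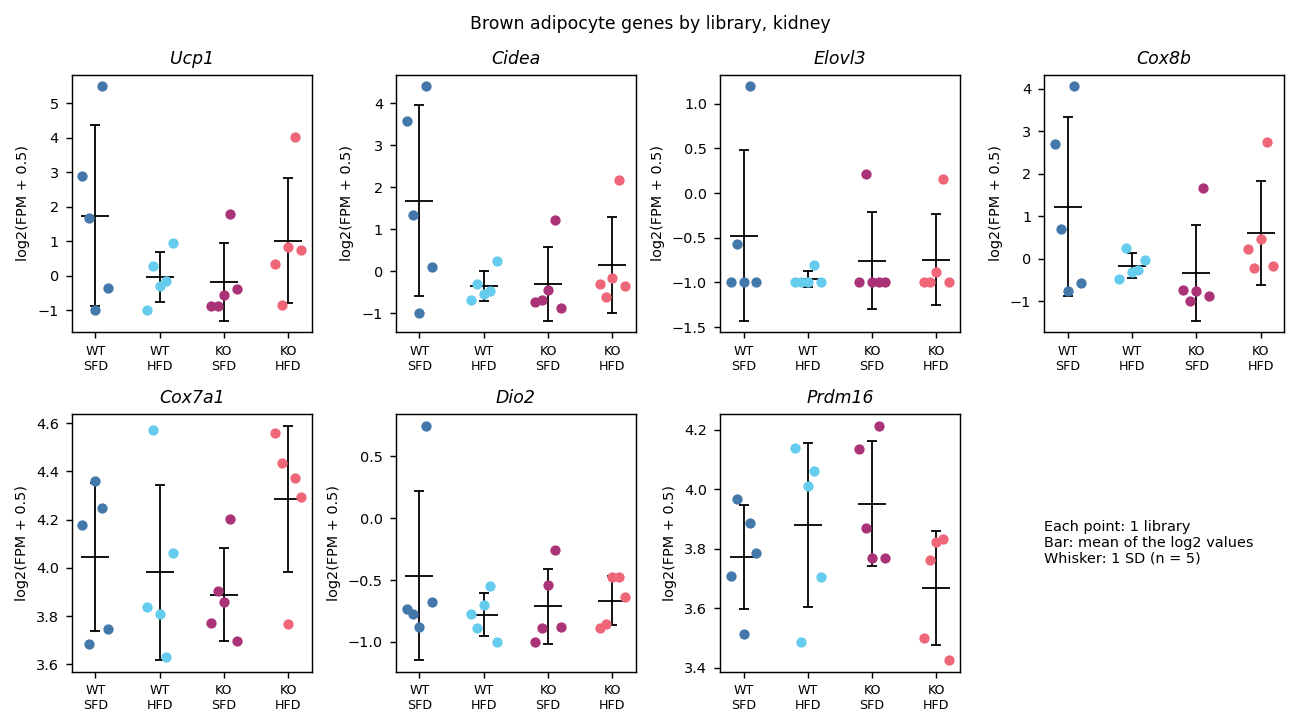
Level of each gene in 20 kidneys, as log2(FPM + 0.5) by group; each point is 1 library, the bar the mean and the whisker 1 SD (n = 5). Ucp1, Cidea and Cox8b show single high kidneys (a19 at 44.5 FPM of Ucp1, a4 at 15.6), whereas Cox7a1 stays between 11.9 and 23.3 FPM.

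Ucp1, Cidea and Cox8b moved as one over 19 kidneys. Of 10 pairs, 4 had an adjusted permutation p under 0.05. Ucp1 with Cidea gave r = 0.94 (rho 0.92), Ucp1 with Cox8b 0.97 (rho 0.91) and Cidea with Cox8b 0.96 (rho 0.89), with a permutation p of 1e-05 for each r, 2e-05 for the last rho and 1e-05 for the other two, and without the 2 farthest kidneys r was 0.90, 0.92 and 0.91. Cox7a1 with Prdm16 gave −0.54 (rho −0.50, permutation p = 0.0166 and 0.0323), which without 2 kidneys had an adjusted p of 0.175. With the first principal component of the kidneys, 25.7% of the variance, Cox7a1 gave r = 0.74 and Prdm16 −0.58. Ucp1, Cidea and Cox8b gave −0.10, −0.20 and −0.04 with it. Its positive side held 4 KO HFD, 1 WT HFD, 1 WT SFD and 0 KO SFD kidneys. Neither Cox7a1 nor Prdm16 passed with Ucp1, Cidea or Cox8b. Ucp1 gave r = 0.34 with Cox7a1 (rho 0.14, permutation p = 0.157 and 0.553), against 0.92 in aorta, and this difference was not tested.

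The sum of 10 white adipocyte markers in kidney was 48.4 to 303 FPM under SFD and 108 to 236 under HFD in WT, and 69.4 to 142 under SFD and 90.5 to 351 under HFD in KO. It was 303 FPM in a19, 226 in a16 and 235 in a4, and 48.4 in a18, which had no Ucp1 count. The kidney with the highest sum, a3 with 351 FPM, had 1.27 FPM of Ucp1. The score gave r = 0.52 with Ucp1 (rho 0.56, permutation p = 0.0217 and 0.0135), 0.52 with Cidea (rho 0.58, permutation p = 0.0216 and 0.01) and 0.59 with Cox8b (rho 0.67, permutation p = 0.00654 and 0.00221), each with an adjusted p of 0.124. The median log2 fold change of the 9 tested white adipocyte markers was −1.83 for KO against WT under SFD and 1.70 for HFD against SFD in KO, and −0.20 for HFD against SFD in WT. Kidneys, like aortas, were cleaned of neighbouring tissue per the methods, and the part of remaining fat cells in these values was not tested.

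**Figure D5:**
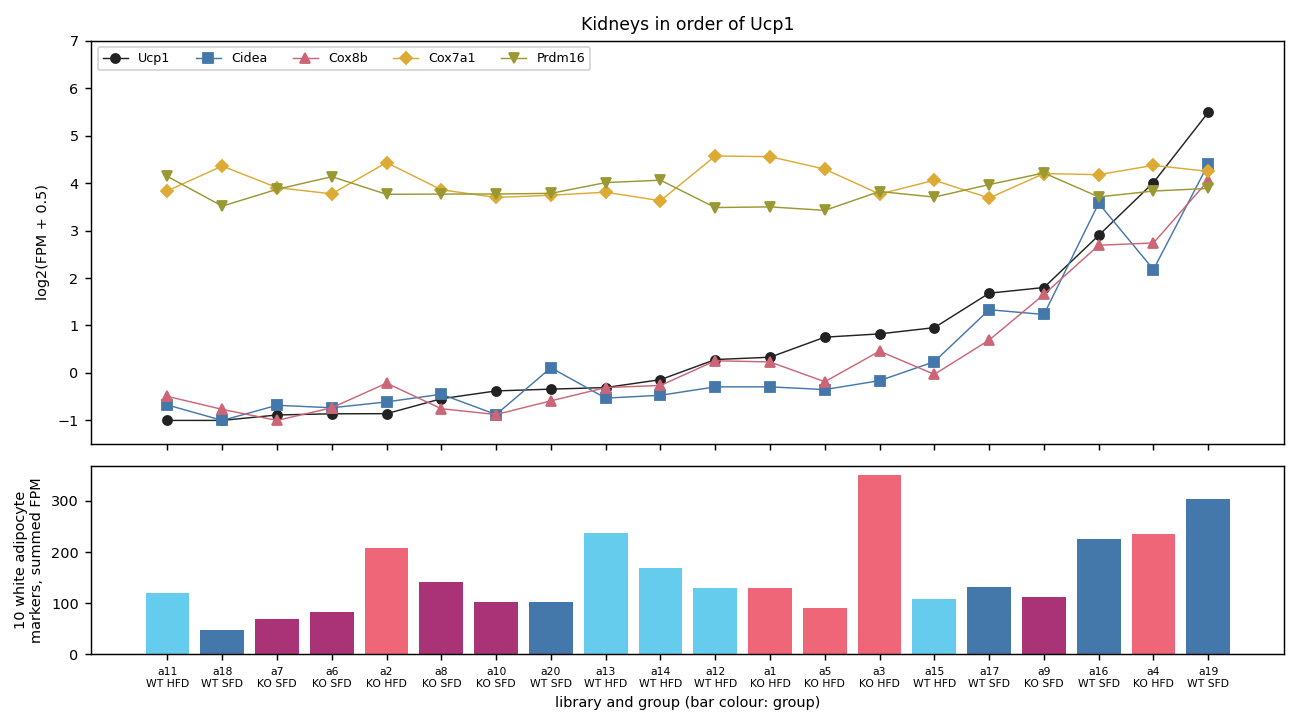
The 20 kidneys in order of Ucp1, with 5 genes as log2(FPM + 0.5) above and the summed FPM of 10 white adipocyte markers as bars below, coloured by group. Ucp1, Cidea and Cox8b climb together toward a19 while Cox7a1 and Prdm16 stay level, and the white marker sum is highest in a3, whose Ucp1 was 1.27 FPM.

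Among 5 tested genes in kidney, 1 was called. Cidea was 6.93 ± 8.94 FPM (SD, n = 5) in WT SFD and 0.307 ± 0.219 in WT HFD, with a log2 fold change of −4.48 (SE 1.30, adjusted p = 0.0456 by edgeR), where 6.71% of 15943 genes were called. The groups overlapped, the exact two-sided permutation test gave p = 0.103, and leaving out 1 library at a time gave log2 fold changes of −4.92 to −3.50, called in 3 of 10 fits. The call was lost without any 1 of a11 to a16 and without a19 (adjusted p up to 0.121 by edgeR), without both a1 and a12 (0.0834), and with only these 2 groups in the fit (0.0859). In the same comparison Ucp1 was 10.9 ± 18.98 and 0.574 ± 0.547 FPM, with −4.22 (SE 1.54, adjusted p = 0.125 by edgeR) and −2.11 without a19. Cox8b was 4.69 ± 6.83 and 0.405 ± 0.189 FPM, with −3.47 (SE 1.30, adjusted p = 0.137 by edgeR).

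No member was called in the other 4 kidney comparisons, in which 0% of all genes were called for KO against WT under SFD, 0% for KO against WT under HFD, 6.34% for HFD against SFD in KO and 0% for the interaction. KO SFD kidneys had 0.706 ± 1.28 FPM of Ucp1, and KO against WT under SFD gave −3.91 (SE 1.53, unadjusted p = 0.0201 by edgeR), −1.80 without a19 and −6.27 without a9. KO HFD kidneys had 3.78 ± 6.65 FPM, and KO against WT under HFD gave 2.68 (SE 1.501, unadjusted p = 0.0911 by edgeR) and 0.50 without a4. HFD against SFD in KO gave 2.37 (unadjusted p = 0.13 by edgeR) for Ucp1, 0.19 without a4 and 4.73 without a9. The interaction was 6.59 (SE 2.14) for Ucp1, 5.56 (SE 1.80) for Cidea and 4.98 (SE 1.82) for Cox8b, each with an adjusted p of 1.00 by edgeR. With 1 kidney left out it ranged from 4.41 (without a4) to 8.95 (without a9) for Ucp1, with 4.49 without a19, from 3.77 to 7.46 for Cidea and from 3.46 to 8.24 for Cox8b. Including Prdm16 with −0.42, an unadjusted p under 0.05 for the interaction was reached by 4 of the 5 genes, against 1.79% of all genes. Because Ucp1, Cidea and Cox8b varied together over kidneys (r of 0.94 to 0.97), their results are not independent of each other. Cox7a1 was 14.4 ± 2.097 FPM in KO SFD and 19.3 ± 3.75 in KO HFD (log2 fold change 0.42, SE 0.18, adjusted p = 0.196 by edgeR). Prdm16 was 15.1 ± 2.31 and 12.3 ± 1.66 FPM in the same groups (−0.30, SE 0.14, adjusted p = 0.239 by edgeR).

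Of the wider programme, 46 genes were tested in kidney. Under HFD in WT, 1 was higher and 7 were lower, beside 6.71% of all genes called. Among the lower ones were Lpl, from 1243 ± 206 to 362 ± 89.8 FPM (SD, n = 5; log2 fold change −1.78), the fatty acid transporter Cd36, from 652 ± 53.9 to 395 ± 17.8 FPM (−0.72), the lipase Pnpla2 (−0.43), the acyl-CoA dehydrogenase Acadm (−0.58), P2rx5, a purine receptor (−0.56), and Pank1, a kinase of coenzyme A synthesis (−0.49), and the higher one was Acaa2 (0.51). Under HFD in KO, where 6.34% of all genes were called, 3 were higher, Acaa2 (0.89), Hadhb (0.24) and the muscle cytochrome oxidase subunit Cox6a2 (2.07), and 6 were lower, Lpl (−1.56), P2rx5 (−0.84), Cd36 (−0.71), Acadm (−0.51), Slc27a2, a fatty acid transport protein (−0.41), and Pank1 (−0.34). None of the 46 was called in the other 3 comparisons. From the remaining lists, the beige marker Pm20d1 fell by 0.37 in WT and by 0.47 in KO on the log2 scale, and Pvalb rose by 1.27 and 1.63. Cideb fell by 0.32 in WT. In KO, Dio1 (0.49), Elovl2 (0.63) and the leptin gene Lep (6.32) rose and Slc12a1, a sodium transporter of the thick ascending limb, fell by 0.62. As background, many of these genes are also expressed by renal tubules.

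The paralogs were also higher in kidney in part. Cox8a was 447 to 773 FPM, and the share of Cox8b in both was 0% to 5.13% per kilobase with a median of 0.118%. Cideb was 35.9 to 58.3 FPM, Dio1 10.5 to 22.4, Ucp2 56.9 to 105, Elovl2 14.2 to 30.5, Elovl7 64.4 to 91.2 and Mecom 27.1 to 51.7. The organs were sequenced as separate tables, and levels were not tested between them.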

How the data were processed

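RNA-seq libraries of 20 aortas and 20 kidneys (n = 5 per group and organ, by genotype and diet in the labels) were used. The authors deposited 1 table of raw read counts per gene for each organ. Per the labels, reads were mapped to mm10 with HISAT2 2.1.0 and counted with featureCounts, whereas the methods name TopHat2; strand and multi-mapping settings are not given in the sources used here. The labels call the deletion inducible and of smooth muscle in one field and endothelial in another; the endothelial design is used. Reads of genes on chromosomes 9, X, Y and MT and at the end of 8 were at 0 in every library, and no gene of the 7 lies there.

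Counts were filtered (filterByExpr), scaled by TMM and fitted in 1 quasi-likelihood model of 20 libraries per organ with edgeR 4.0.16 (R 4.3.3). P-values were adjusted by Benjamini and Hochberg over all genes and called at 0.05. FPM are counts per 1000000 of the scaled library size. Correlations used log2(FPM + 0.5), 100000 permutations (all permutations for n under 10) and Benjamini-Hochberg adjustment over the pairs of an organ. DESeq2 1.42.0 was an alternative. The code was tested on simulated data. Figures and correlations were made with Python 3.11.15, scipy 1.17.1 and matplotlib 3.10.9. Gene models are GENCODE M21 on GRCm38, promoters RefSeq on GRCm38.p6.

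Named genes were the 7 genes, their paralogs, genes called from the other lists or the 3 of the brown programme with the smallest p, and the genes most correlated with each member, except 1 that is not reported here; single genes named for their r with Ucp1 (Tfam, Acaa2, Adrb3, Pparg) and Cfd and Retn were picked after their values were seen. The 7 genes and the lists were chosen with earlier results of these data known. The principal component, the marker scores and the correlations over kidneys were added after seeing the data. The total counts limit precision for values of a few counts, and intervals for counting error alone are not given. The libraries are numbered through each organ. P-values of the group comparisons set a difference against the spread between the libraries within groups. Those of the correlations come from permuting libraries pooled over the groups, or within a diet or a side of the component.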

Additional observations from a re-analysis of the deposited data

Results flagged for a closer look

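Of 56 sets of 5 libraries (7 genes, 4 groups, 2 organs), 17 held a library whose gap to the nearest other exceeded Dixon's critical value. The nominal rate of about 1 in 20, or 2.8 sets, holds for independent sets of normally distributed values. The gaps were taken on FPM without a logarithm, and Ucp1, Cidea and Cox8b shared their high kidneys. The count of 17 therefore cannot be set against that rate.

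In aorta, R-8 (WT HFD) stood apart with 74.5 FPM of Ucp1, against 1.23 to 20.3 in the other WT HFD aortas, and with 2.62 FPM of Elovl3. R-12 (KO SFD), which is nearly identical to the WT SFD library R-1, had 0.197 FPM of Elovl3. R-11 (KO SFD) was low in Dio2 with 35.7 FPM, against 71.4 to 72.3. R-10 (WT HFD) had 214 FPM of Prdm16 and R-20 (KO HFD) 175 FPM, against 73.5 to 98.7 and 99.4 to 119 in the others of their groups.

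In kidney, a19 (WT SFD) had 44.5 FPM of Ucp1, 1.79 of Elovl3 and 1.18 of Dio2. The kidney a9 (KO SFD) had 2.98 FPM of Ucp1, 1.85 of Cidea and 2.65 of Cox8b. The kidney a4 (KO HFD) had 15.6 FPM of Ucp1, 4.03 of Cidea, 6.18 of Cox8b and 0.613 of Elovl3. The kidney a7 (KO SFD) had 0.660 FPM of Elovl3 with 0.0413 of Ucp1.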

How the results depend on the processing

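No paired analysis was possible, because the replicate numbers do not link libraries of the same animal. The same number stands for different groups in the organs: R-1 is a WT SFD aorta and a1 a KO HFD kidney. The organs were not compared. In aorta the count of member genes called was 0 under every alternative run. In kidney the single call, HFD against SFD in WT, became 0 without the count filter, without the near-identical libraries, with only the groups compared and with the white adipocyte score as a covariate (chosen after seeing the data), and ranged from 0 to 1 when 1 library was left out. It was kept with edgeR's exact test and with DESeq2. Over all genes, the kidney counts called were 1069 for HFD against SFD in WT and 1011 in KO, and 347 and 344 with a fold change over 1.5 and a mean over 5 FPM. With only the groups compared the WT count was 607, and with the white adipocyte score the KO count was 660. In aorta, KO against WT under HFD had 0 genes called, 25 with DESeq2, 27 with edgeR's exact test and 21 without the near-identical libraries, and HFD against SFD in WT had 2, 9, 6 and 2, with 1 when no count filter or the fold and FPM limits were used and 0 with only those groups or with the score. HFD against SFD in KO had 0, 4 with DESeq2, and 1 with the exact test or the score.

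Log2 fold changes that changed sign were small in most cases. In aorta, Cox7a1 for HFD against SFD in KO was 0.11 without the near-identical libraries. With the white adipocyte score, KO against WT under SFD gave −0.33 for Prdm16, 0.71 for Cox8b and 0.30 for Cidea, HFD against SFD in WT −0.43 for Prdm16 and 0.052 for Cidea, and HFD against SFD in KO 0.20 for Cox7a1 and 0.075 for Cox8b, and in kidney −0.63 for Cox8b and −0.98 for Cidea. With a block for the 2 sides that the first principal component separates (chosen after seeing the data), Cidea was 0.17 for KO against WT under SFD, and Cox7a1 0.27 and Dio2 −0.075 for HFD against SFD in KO. The difference in mean log2(FPM + 0.5) was 0.0062 for Cidea, −0.035 for Cox7a1 and 0.045 for Dio2 in KO against WT under SFD, and −0.023 for Prdm16 in HFD against SFD in WT. Cidea for HFD against SFD in KO was −0.67, exact permutation p = 0.0476.

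With 1 library left out, aorta ranges that crossed 0 were −0.40 to 0.11 (Cox7a1), −0.037 to 0.22 (Prdm16) and −0.12 to 0.68 (Ucp1) for HFD against SFD in KO; −0.31 to 0.22 (Prdm16) for HFD against SFD in WT; −0.24 to 0.14 (Cidea), −0.28 to 0.33 (Cox7a1), −0.26 to 0.18 (Dio2) and −0.26 to 0.78 (Ucp1) for KO against WT under SFD; and −0.11 to 0.42 (Prdm16) for the interaction. In kidney they were −0.70 to 2.98 (Cidea) and −0.0084 to 4.76 (Cox8b) for HFD against SFD in KO, −0.23 to 0.053 (Cox7a1) for HFD against SFD in WT and −0.062 to 2.18 (Cidea) for KO against WT under HFD. Of all other values, 1019 for single genes and 198 for counts kept their direction and side of the threshold. Ucp1 for HFD against SFD in WT in aorta was 2.55 with the component as a block and −0.62 for KO against WT under HFD.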

Other observations

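Over 19 kidneys, the genes most correlated with Ucp1 were Thrsp (Pearson's r = 0.89), a regulator of lipogenesis, Ppp1r3b (0.88), a glycogen-targeting phosphatase subunit, Nat8l (0.87), which makes N-acetylaspartate, Adig (0.84), a gene of fat cells, and Hk2 (0.81), a hexokinase. This ranking was added after the values were seen. The 8 tested genes of the list of other brown-enriched genes had a median r with Ucp1 of 0.03 in kidney, beside 0.01 over all genes, with 5 of 8 positive and the highest value, 0.80, for Slc36a2.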
